A study of Mus musculus with 45 samples.

Results

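The GADD45 family was followed across the RNA-seq series as 4 genes matched by gene symbol, Gadd45a, Gadd45b, Gadd45g and Gadd45gip1, out of 28454 genes listed. All 4 had counts in the table and passed the filter on low counts in each fit. The series holds 45 poly(A) RNA libraries of mouse mammary tumour cell lines in 15 groups of 3 cultures. The MYAZ16.1e, MYAZ12.3i and MYAZ6.6g lines came from mammary tumours of MMTV-cMYC mice, in which a mammary virus promoter drives the MYC transgene. Myc310 is a line from 1 such mouse that had several tumours, the lines LM1, LM2 and LM3 were grown out from lungs after Myc310 was injected into the mammary fat pad, and LM1-LM came from lungs after LM1 was injected in turn. LM2-LM and LM3-LM are named by the study as replicates of LM1-LM, and the line injected for them is not given in the sources used here. The last line, MYAZ12.3i NDI1, is labelled as MYAZ12.3i expressing NDI1. All 11 lines therefore carried the MYC transgene. Per the labels, the medium was renewed 24 h after 250000 cells per well had been seeded, and cultures were sampled 6 h later. All lines received control medium (33 libraries), and MYAZ16.1e, Myc310, LM1 and, among the LM-LM lines, LM1-LM also received medium without cysteine and cystine (12 libraries, called deprived here). The study's notes call the 3 cultures of a line technical replicates. SDs, SEs and p-values from single lines therefore measure the spread between cultures of a line and not between tumours or mice. Comparisons of groups of lines pool the cultures of several lines, so their SEs and p-values mix the spread between cultures with that between lines.

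GADD45A, GADD45B and GADD45G are small acidic proteins without known enzymatic activity that are made in response to stress and act by binding partners. They bind the kinase MAP3K4 upstream of p38 and JNK, the mitotic kinase CDK1, the replication clamp PCNA and the cyclin-dependent kinase inhibitor p21, and they have been linked to active DNA demethylation. Gadd45a is a known target of p53 and of the ATF4 branch of the integrated stress response, which amino acid shortage switches on, whereas Gadd45b is best known as a target of NF-kB and TGF-beta signalling and Gadd45g as a cytokine-induced gene. GADD45GIP1, also called CRIF1, is not a homologue of the other three: it was named for binding them and is a protein of the large subunit of the mitochondrial ribosome.

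Libraries held between 19517859 and 29019988 counts (median 22899900), and no 2 libraries were identical. Of the 8 mammary epithelial markers looked at, Krt8 and Krt18 were abundant in all libraries, with levels of at least 217 and 94.0 CPM (counts scaled to the TMM-normalised size of the library), while Epcam and Cdh1 never exceeded 0.802 and 0.284 CPM. The keratins Krt7 and Krt19 lay between 2.44 and 113 CPM, and the basal keratins Krt5 and Krt14 never exceeded 0.252 and 1.13 CPM. Of the 8 markers, 4 keratins were thus above 1 CPM in all libraries, while the adhesion molecules and the basal keratins were at or near 0 in most. Of 5 leukocyte, 4 endothelial and 4 alveolar markers with counts, all but 3 stayed at or below 0.718 CPM in every library, lung-derived lines included. The 3 were the lysosomal gene Cd68 (2.70 to 18.7 CPM), the VEGF receptor gene Kdr (up to 6.36) and the alveolar gene Ager (up to 1.97).

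Gadd45a (ENSMUSG00000036390) lies on the minus strand of chromosome 6 (GRCm38, chr6:67035096-67037457), Gadd45b (ENSMUSG00000015312) on the plus strand at chr10:80930073-80932204, and Gadd45g (ENSMUSG00000021453) on the plus strand at chr13:51846678-51848468, each with up to 4 exons in its annotated transcripts. Gadd45gip1 (ENSMUSG00000033751) lies on the plus strand at chr8:84831522-84835482, with 2 exons. An RNA gene, E230016M11Rik, overlaps Gadd45a on the other strand. The library kit keeps strand, but the strand setting of the counting is not given in the sources used here, so reads from the 2 strands of a locus may not have been told apart. E230016M11Rik had at most 13 counts in any control library and 30 in any deprived library, against 32 to 254 and 2844 to 8866 for Gadd45a.

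The bases before the transcription start of the 3 homologues are shown because Gadd45a and Gadd45g were higher in all deprived cultures and Gadd45b was not. RefSeq promoters (GRCm38.p6) were found for 3 of the 4 genes, with none for Gadd45gip1. Each sequence is printed 5′ to 3′ on the strand of its gene and stops before the first base annotated as exon: chr6:67037458-67037657 for Gadd45a (minus strand, 200 bases), chr10:80929841-80930072 for Gadd45b (plus strand, 232 bases) and chr13:51846425-51846674 for Gadd45g (plus strand, 250 bases). Capitals mark matches to 5 motifs searched on both strands over 250 bases: TGATGNAA (the composite element bound by ATF4 with C/EBP proteins), ATGCAAAT (the octamer), CACGTG (an E-box), CCAAT and TATAAA.
Gadd45a: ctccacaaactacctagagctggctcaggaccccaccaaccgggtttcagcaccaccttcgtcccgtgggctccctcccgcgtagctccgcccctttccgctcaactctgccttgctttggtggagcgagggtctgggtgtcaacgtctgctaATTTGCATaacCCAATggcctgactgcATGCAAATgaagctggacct
Gadd45b: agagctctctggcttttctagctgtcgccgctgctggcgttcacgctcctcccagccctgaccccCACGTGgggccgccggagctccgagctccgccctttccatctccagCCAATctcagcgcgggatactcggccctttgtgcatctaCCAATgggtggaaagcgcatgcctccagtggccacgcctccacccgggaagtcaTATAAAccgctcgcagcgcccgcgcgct
Gadd45g: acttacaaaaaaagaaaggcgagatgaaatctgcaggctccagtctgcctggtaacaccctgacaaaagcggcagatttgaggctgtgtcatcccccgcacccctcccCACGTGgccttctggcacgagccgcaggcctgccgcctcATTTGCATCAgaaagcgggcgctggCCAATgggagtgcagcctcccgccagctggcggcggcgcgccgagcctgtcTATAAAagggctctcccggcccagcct
Positions below are counted from the transcription start in the RefSeq table, with 50 bases between the printed sequence and that start for Gadd45a, 18 for Gadd45b and 0 for Gadd45g. The composite element was matched in Gadd45g alone of the 3, from 101 to 94 bases before the start on the minus strand, where it shares bases with an octamer match, and 3.45% of 32851 promoters held such a match. Gadd45a held 2 octamer matches on opposite strands, from 97 to 90 and from 70 to 63 bases before the start, with a CCAAT box between them. The octamer was found in 1.6% of promoters. Gadd45b held an E-box (6.02% of promoters), 2 CCAAT boxes (33.8%) and a TATA box (12.4%), and Gadd45g also held 1 of each of these. These are matches of letters in a short window, and binding was not measured.

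The first question was how each gene's level changed when cyst(e)ine was withdrawn. The family was chosen by measured values, namely the deprivation change of Gadd45a in LM1 and LM1-LM known from earlier results, so the deprivation values of all 4 genes are given as descriptions, without tests. Gadd45a was low in control medium and abundant after deprivation in all 4 lines. In MYAZ16.1e, control cultures had 5.91, 6.43 and 5.03 CPM and deprived cultures 132, 135 and 135 CPM. In Myc310 the control values were 4.34, 6.51 and 5.84 CPM and the deprived values 257, 254 and 235 CPM. No deprived culture came near the control range in either line. In LM1 the level went from 3.04, 2.66 and 2.58 CPM to 278, 276 and 309 CPM. In LM1-LM it went from 2.02, 1.33 and 1.54 CPM to 339, 341 and 347 CPM. The 2 media did not overlap in any of the 4 lines. Of all 13400 genes tested, 58.9% showed such a gap in MYAZ16.1e (29.7% higher and 29.2% lower after deprivation) and 69.4% in Myc310 (34.9% and 34.5%). The share was 73.4% for LM1 (34.9% and 38.5%) and 74% for LM1-LM (35.3% and 38.7%).

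The fold of the mean CPM of Gadd45a was 23.2 for MYAZ16.1e, 44.7 for Myc310, 104 for LM1 and 210.05 for LM1-LM. As fitted log2 fold changes these were 4.55 ± 0.074 (SE, 3 cultures against 3), 5.48 ± 0.071, 6.74 ± 0.081 and 7.75 ± 0.085. The SE here and below is the size of the log2 difference divided by the square root of its F statistic (edgeR, quasi-likelihood). For folds this large it may be too small, as control log2 CPM had an SD of 0.29 in LM1-LM (n = 3). Among all 13400 genes tested, Gadd45a ranked 36 by log2 fold change for MYAZ16.1e, 46 for Myc310, 24 for LM1 and 10 for LM1-LM. The lines with larger folds had both lower control levels and higher deprived levels. The deprived level was 134 ± 1.61 CPM (SD, n = 3) in MYAZ16.1e and 248 ± 12 in Myc310, against 288 ± 18.5 in LM1 and 343 ± 4.43 in LM1-LM, and no neighbours in this order overlapped. In control medium the order was the opposite, with LM1-LM lowest and MYAZ16.1e highest, and only MYAZ16.1e and Myc310 overlapped among neighbours. Relative to MYAZ16.1e, the log2 fold change was larger by 0.93 ± 0.14 (SE) in Myc310, by 2.19 ± 0.16 in LM1 and by 3.20 ± 0.17 in LM1-LM.

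**Figure D1:**
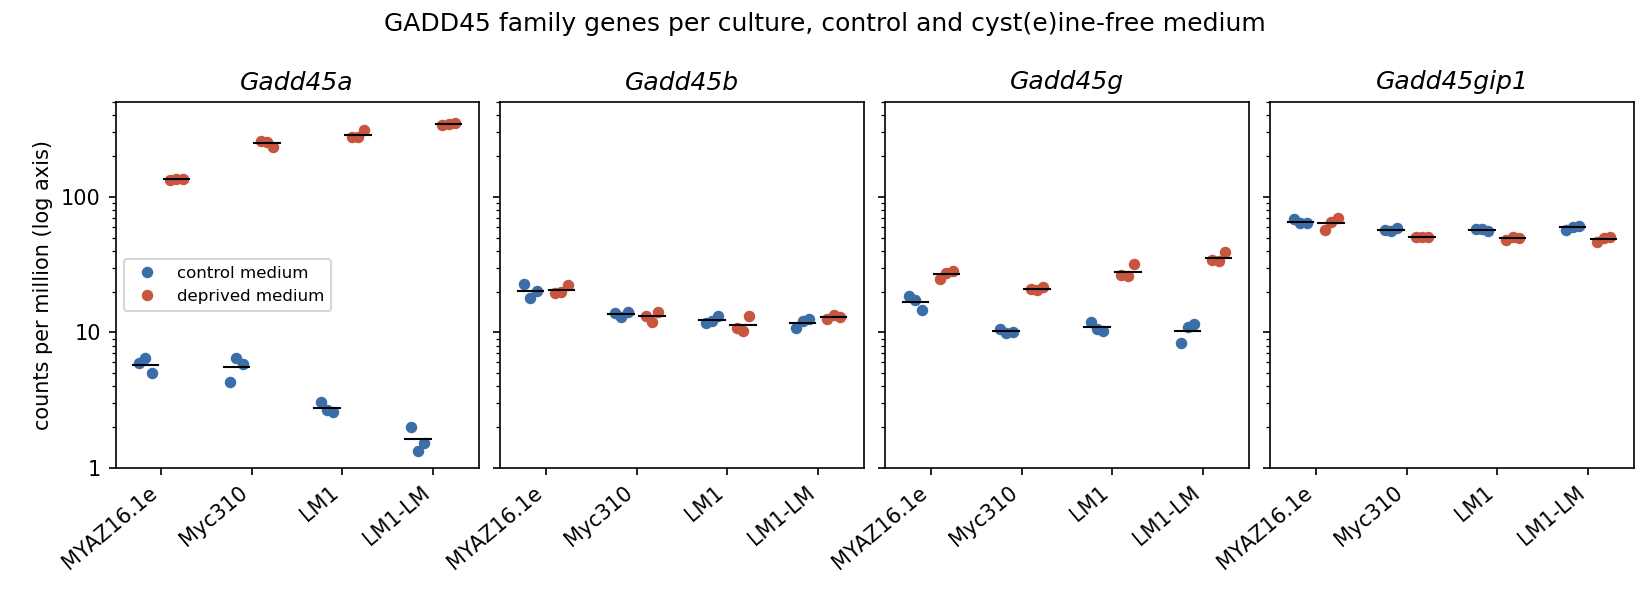
CPM of each gene (log axis) in the 3 control and 3 deprived cultures of the 4 lines sampled in both media; points are cultures and black bars are means. Gadd45a lies between 1.33 and 6.51 CPM in control medium and between 132 and 347 CPM after deprivation, Gadd45g is higher in every deprived culture of a line than in its control cultures, and Gadd45b and Gadd45gip1 stay near their control levels.

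Gadd45g was also higher in every deprived culture, on a much smaller scale. In MYAZ16.1e its values were 18.4, 17.4 and 14.7 CPM in control medium and 24.7, 27.6 and 28.2 CPM after deprivation. In Myc310 they were 10.6, 9.86 and 10.1 CPM against 20.7, 20.7 and 21.5 CPM. Both lines thus showed a gap between the media, smaller than that of Gadd45a. In LM1 the control cultures had 11.9, 10.6 and 10.3 CPM and the deprived cultures 26.6, 25.9 and 31.8 CPM. In LM1-LM they had 8.39, 10.9 and 11.6 CPM against 33.9, 33.4 and 38.9 CPM. The log2 fold changes were 0.68 ± 0.092 (SE) for MYAZ16.1e, 1.03 ± 0.10 for Myc310, 1.40 ± 0.099 for LM1 and 1.82 ± 0.097 for LM1-LM, so the lines fell in the same order as for Gadd45a. Relative to MYAZ16.1e the response was larger by 0.35 ± 0.14, 0.72 ± 0.14 and 1.14 ± 0.13 in Myc310, LM1 and LM1-LM. The deprived levels did not keep that order, since MYAZ16.1e (26.9 ± 1.86 CPM, SD) overlapped LM1 (28.1 ± 3.22) and Myc310 was lowest (21.0 ± 0.474).

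Gadd45b, the member tied to NF-kB and TGF-beta signalling, had nearly the same level in both media. Its mean went from 20.3 ± 2.38 CPM (SD, n = 3) in control medium to 20.6 ± 1.46 CPM in MYAZ16.1e. It went from 13.7 ± 0.606 to 13.1 ± 1.15 CPM in Myc310 and from 12.35 ± 0.780 to 11.4 ± 1.57 CPM in LM1. The cultures of the 2 media overlapped in these 3 lines. In LM1-LM the control cultures had 10.8, 12.2 and 12.5 CPM and the deprived cultures 12.6, 13.5 and 12.9 CPM, which did not overlap but lay close together. The log2 fold changes were between -0.08 (SE 0.099, LM1) and 0.17 (SE 0.097, LM1-LM).

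Gadd45gip1, the mitochondrial ribosome protein, was slightly lower after deprivation in 3 lines. Its deprived cultures lay below all control cultures in Myc310 (50.2 to 50.7 CPM against 55.8 to 58.5), LM1 (47.6 to 50.3 against 55.8 to 58.1) and LM1-LM (46.7 to 50.4 against 57.3 to 61.3). A gap in that direction was seen for 34.5%, 38.5% and 38.7% of all genes in these lines. In MYAZ16.1e the deprived cultures spread from 57.2 to 70.2 CPM and enclosed the control range of 63.8 to 68.7 CPM. The log2 fold changes were -0.03 ± 0.050 (SE) for MYAZ16.1e, -0.19 ± 0.052 for Myc310, -0.18 ± 0.053 for LM1 and -0.25 ± 0.052 for LM1-LM.

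**Figure D2:**
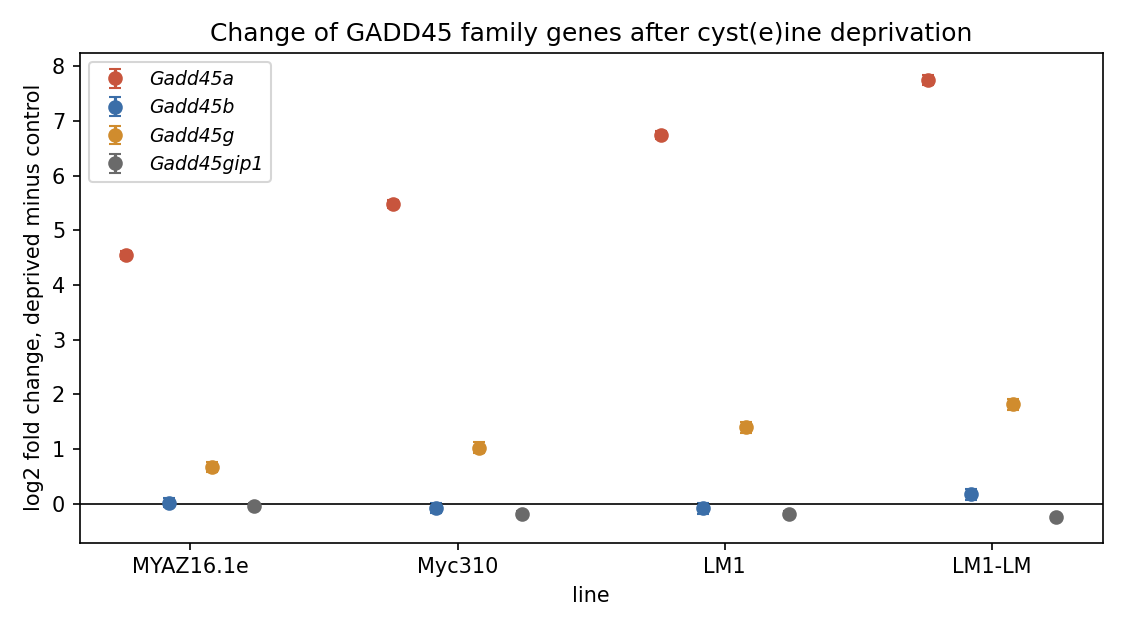
Fitted log2 fold change (deprived minus control, vertical axis) of the 4 genes in each of the 4 lines, with 3 cultures per medium. Error bars are standard errors derived from the F statistic, which may be too small for the large folds of Gadd45a. Gadd45a runs from 4.55 to 7.75 and Gadd45g from 0.68 to 1.82 in the same order of lines, MYAZ16.1e being lowest and LM1-LM highest, while Gadd45b and Gadd45gip1 lie between -0.25 and 0.17.

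To compare genes with each other, CPM were divided by the length of each gene's annotated exons (CPM per kb). In control medium Gadd45a was the least abundant of the 3 homologues in every line, at 0.924 to 5.06 CPM per kb, against 3.49 to 17.6 for Gadd45b and 7.47 to 16.9 for Gadd45g. Gadd45gip1 was above them all at 20.5 to 27.0 CPM per kb. After deprivation Gadd45a stood at 76.0 ± 0.915 CPM per kb (SD, n = 3) in MYAZ16.1e and 194 ± 2.51 in LM1-LM, above the other 3 genes in each of the 4 lines. The sum of the 3 homologues went from 30.4 ± 2.68 to 112 ± 3.25 CPM per kb in MYAZ16.1e and from 17.2 ± 1.84 to 233 ± 4.96 in LM1-LM. Gadd45a made up 10.8% ± 1.25 (SD) of this sum in control MYAZ16.1e cultures and 68.0% ± 1.19 after deprivation. For Myc310 its share was 15.4% before and 84.3% after deprivation, for LM1 8.39% before and 84.0% after, and for LM1-LM 5.51% before and 83.5% after. Before deprivation the sum was mostly Gadd45b and Gadd45g, and the share of Gadd45b went from between 41.7% and 43.5% to between 3.52% and 11.6%.

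**Figure D3:**
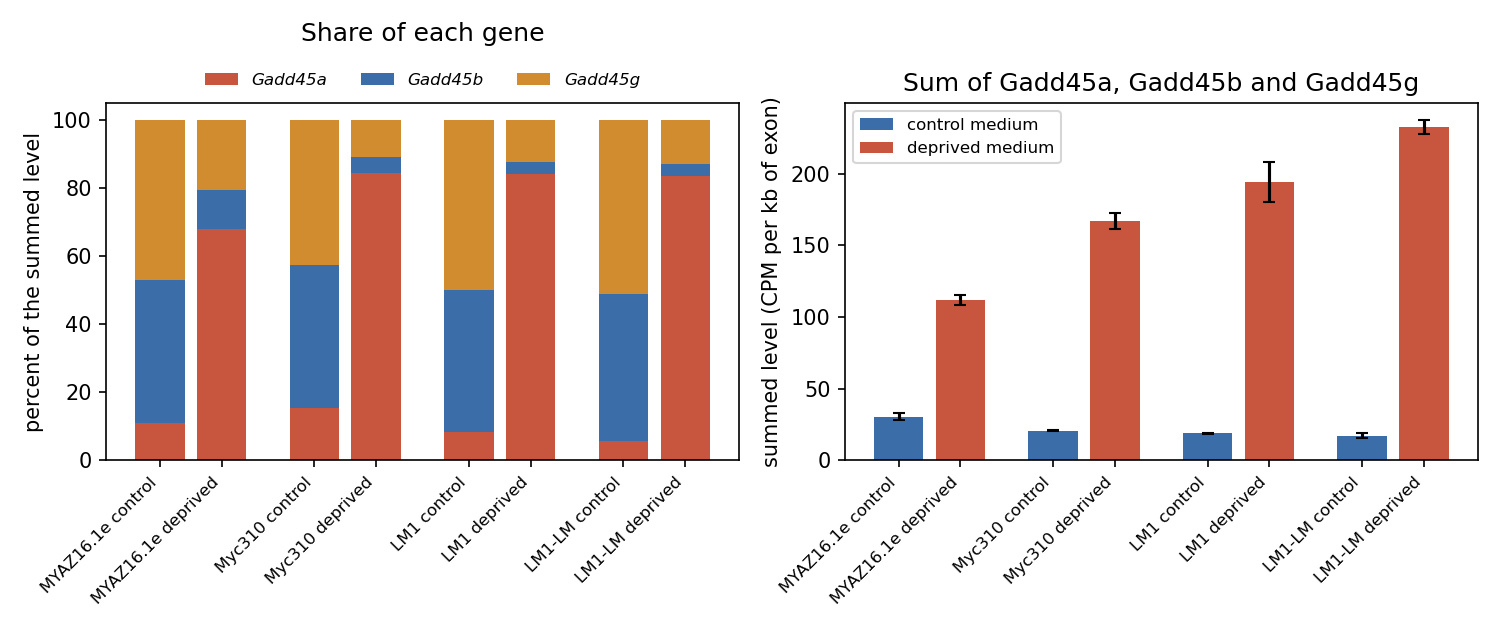
Left, percent of the summed length-scaled level (CPM per kb of exon) contributed by Gadd45a, Gadd45b and Gadd45g in each line and medium, as means of 3 cultures; right, the sum itself, with SD bars. Gadd45a goes from 5.51% to 15.4% of the sum in control medium to 68.0% to 84.3% after deprivation, and the sum reaches 233 CPM per kb in deprived LM1-LM.

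Next, other genes of the pathways around the family were examined in the same deprivation comparison, as 8 lists of 79 genes in all. The lists were chosen with earlier results of these data known, so the counts below describe them and are no independent support. The listed genes were tested with edgeR's quasi-likelihood test, adjusted over all 13400 genes by Benjamini-Hochberg. In MYAZ16.1e 63 of the listed genes passed the threshold of 0.05, in Myc310 64, and in LM1 and LM1-LM 69 each, when 53.7%, 66.8%, 71.1% and 72.4% of all genes passed. Genes that passed upwards were 26.6%, 32.8%, 35.8% and 36.5% of all genes in these lines, and genes that passed downwards 27.1%, 33.9%, 35.3% and 35.9%. Among 14 amino acid response genes, 14 rose in MYAZ16.1e, Myc310 and LM1 and 13 in LM1-LM, and none fell. Their median log2 fold change was 3.43, 2.83, 3.95 and 4.01 (3.31 in LM1-LM with 2 genes that had no control counts set at a floor of 3 counts per library), with a median over all genes between -0.01 and 0. Atf3, a stress-induced transcription factor of the ATF family, went from 1.58 ± 0.102 to 33.4 ± 1.38 CPM in MYAZ16.1e and from 0.22 ± 0.089 to 171 ± 4.03 CPM in LM1-LM. Chac1, an enzyme that degrades glutathione, went from 2.91 ± 0.256 to 181 ± 1.57 CPM and from 1.52 ± 0.570 to 116 ± 3.85 CPM in the same lines. Chac1 thus reached its highest deprived level in MYAZ16.1e, unlike Gadd45a and Atf3. The lipoprotein receptor gene Vldlr rose in all 4 lines, from 2.98 ± 0.474 to 59.9 ± 2.80 CPM in MYAZ16.1e, but had no counts in control LM1-LM and only 0.833 ± 0.297 CPM after deprivation there.

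Regulators known to act on GADD45 genes mostly rose, with 11 of 14 higher in MYAZ16.1e and 10 in each other line. Their list shares Atf3, Atf4, Cebpb and Ddit3 with the amino acid response list. Atf4, whose protein drives that response, went from 214 ± 4.70 to 676 ± 8.36 CPM in MYAZ16.1e and from 139.9 ± 1.40 to 829.6 ± 9.08 CPM in LM1-LM. Ddit3, which encodes the stress factor CHOP, had deprived levels of 42.9 ± 3.29 CPM in MYAZ16.1e and 57.1 ± 0.738 to 59.0 ± 0.694 CPM in the other 3 lines. Trp53, encoding p53, fell in all 4 lines (log2 fold changes of -0.35 to -0.22). Myc, for which reads of the transgene could not be told apart here, fell in Myc310 (-0.32), LM1 (-0.88) and LM1-LM (-1.26), and its change of 0.06 in MYAZ16.1e did not pass (adjusted p = 0.177, edgeR).

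Target genes of 3 routes to the GADD45 family were then counted, of which the p53 list was the most mixed in direction. Of 15 p53 targets, 11 rose and 2 fell in MYAZ16.1e, 7 rose and 6 fell in Myc310, and 8 rose and 7 fell in LM1 and in LM1-LM. The p53 target Bbc3, which encodes the death protein PUMA, rose in all 4 lines, by up to 1.80 on the log2 scale in MYAZ16.1e. Plk2, a stress-induced kinase, rose by 0.80 in MYAZ16.1e and by 1.30 in Myc310, against 1.98 in LM1 and 2.14 in LM1-LM. Eda2r, a receptor gene, rose by 0.42, 0.78 and 0.88 in Myc310, LM1 and LM1-LM and also passed in MYAZ16.1e, where it had no counts in control medium and 0.21 ± 0.11 CPM after deprivation. Of 9 NF-kB targets tested, 5 rose in every line and 1 or 2 fell, among them Nfkbia, the inhibitor of NF-kB, in all 4 lines. The NF-kB subunit gene Relb rose by 0.60 in MYAZ16.1e and by 1.25 to 1.55 in the others, and the chemokine gene Cxcl1 by 0.74 to 1.65. Bcl3, which encodes a cofactor of NF-kB, rose by 0.40 to 0.90. Of 6 TGF-beta targets, 5 rose in MYAZ16.1e and 4 in each other line, and 1 (Ski) fell in LM1 and LM1-LM. Ccn2, which encodes a matricellular protein, rose by 0.48 in MYAZ16.1e and by 1.89, 2.68 and 2.84 in Myc310, LM1 and LM1-LM, and Skil, a repressor of SMAD signalling, rose by 0.75 to 1.39. Gadd45b thus kept nearly its control level in cultures in which 5 of 9 NF-kB targets and 4 or 5 of 6 TGF-beta targets rose.

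Among 12 kinase and cell cycle partners of the GADD45 proteins, 1 rose and 6 fell in MYAZ16.1e, 2 rose and 8 fell in Myc310, and 5 rose and 6 fell in LM1 and in LM1-LM. The gene that rose in MYAZ16.1e was Cdkn1a, encoding p21, and it rose in all 4 lines by 1.23 to 1.70 on the log2 scale, to 339 ± 2.82 CPM in LM1-LM. Ccnb1, encoding the mitotic cyclin B1, fell in MYAZ16.1e (-0.39) and rose by 0.19, 0.57 and 0.74 in the other lines. The 5 that rose in LM1 and LM1-LM were Cdkn1a, Ccnb1, Cdk1, Map2k7 and Mapk8, which encodes JNK1. Pcna fell in every line (-0.74 to -0.66), from 516 ± 10.3 to 327 ± 7.25 CPM in MYAZ16.1e. Map2k6, a kinase that activates p38, fell in MYAZ16.1e (-0.85) and further in the others (-1.97 to -1.85), from control levels of 2.24 to 5.72 CPM.

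Of the 6 DNA demethylation and repair partners Tet1 did not pass the filter on low counts. Tet2, a methylcytosine dioxygenase, rose in all 4 lines by 0.56, 1.16, 1.53 and 1.39, and Tet3 by 0.10 to 0.37. Ing1, encoding a chromatin reader that works with GADD45A, fell in all 4 lines (-0.60 to -0.43). Tdg, the thymine DNA glycosylase, fell in MYAZ16.1e (-0.20) and rose in LM1 and LM1-LM by 0.26 and 0.30, and Ercc5, a nucleotide excision repair nuclease, rose in MYAZ16.1e by 0.28. Of 7 partners of Gadd45gip1, 3 rose in each line: Nfe2l2, encoding the antioxidant regulator NRF2, by 0.37 to 0.95, and the mitochondrial ribosomal genes Mrpl24 and Mrpl47 by 0.13 to 0.71. Oxa1l, the mitochondrial insertase, and Stat3 fell in all 4 lines, and Mrpl23 in 3. Genes of the mitochondrial ribosome next to Gadd45gip1 in this list therefore did not move in a common direction.

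**Figure D4:**
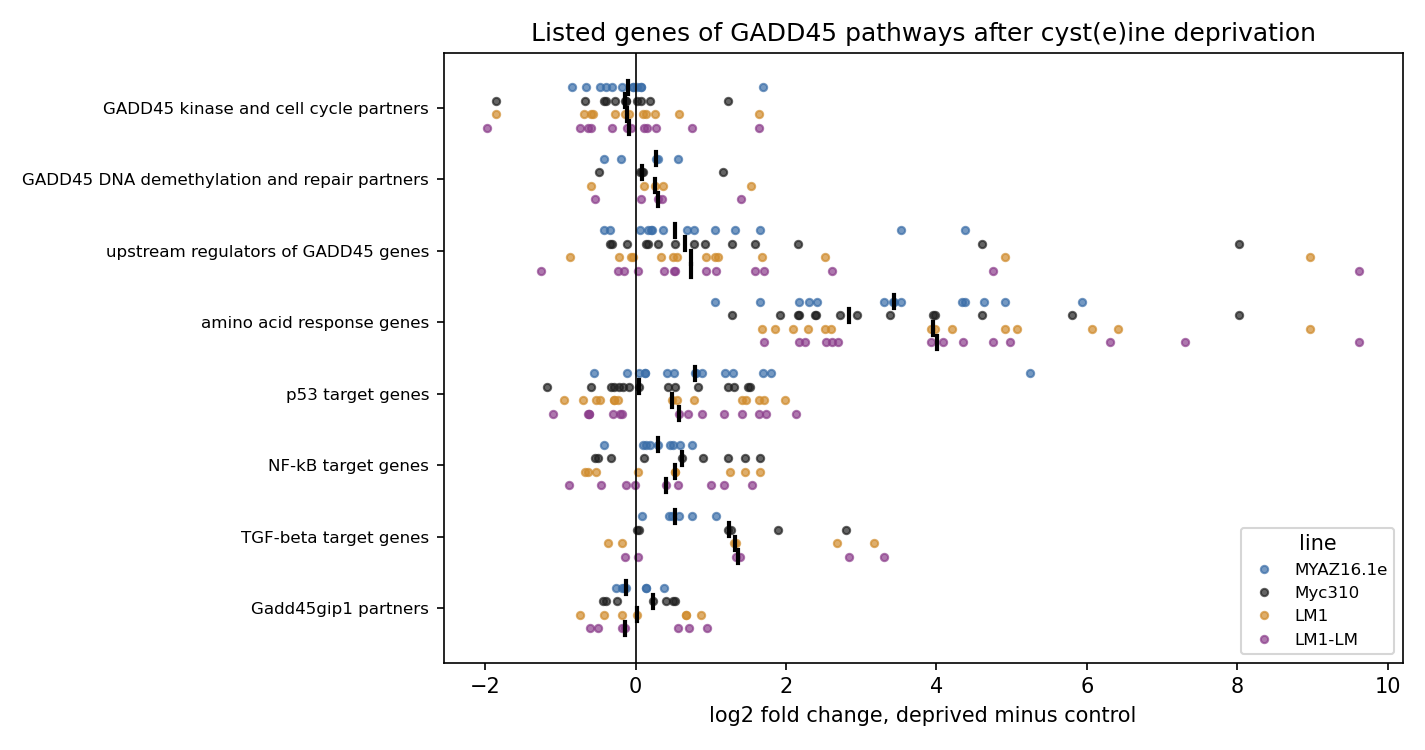
Log2 fold change (deprived minus control, horizontal axis) of every tested gene of the 8 lists, by list and line; points are genes and black ticks are list medians. The amino acid response genes lie furthest to the right, with medians from 2.83 to 4.01, and the kinase and cell cycle partners have medians between -0.14 and -0.09; 3 points rest on genes without control counts (Eda2r in MYAZ16.1e, Stc2 and Vldlr in LM1-LM), so that their size depends on the fit.

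Levels in control medium were then compared between the 11 lines. Gadd45a had 8.93 ± 0.628 CPM (SD, n = 3) in MYAZ12.3i NDI1 and 8.76 ± 0.462 in MYAZ12.3i, then 7.18 ± 0.393 in MYAZ6.6g, 6.32 ± 0.725 in LM2, 6.25 ± 0.845 in LM3-LM, 5.79 ± 0.710 in MYAZ16.1e and 5.56 ± 1.11 in Myc310. Lower still were LM3 (4.0 ± 0.31), LM1 (2.76 ± 0.246), LM2-LM (1.74 ± 0.319) and LM1-LM (1.63 ± 0.356). Of the 10 pairs of neighbours in this order, 7 overlapped, and the gaps lay below MYAZ12.3i, below LM3 and below LM1. LM2-LM and LM1-LM thus formed a low pair, whereas LM3-LM lay among the Myc310 and MYAZ16.1e cultures.

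Gadd45b was highest in the MYAZ lines, with 28.0 ± 0.233 CPM in MYAZ12.3i, 26.1 ± 1.08 in MYAZ6.6g and 20.3 ± 2.38 in MYAZ16.1e. Myc310 and the lung-derived lines other than LM2-LM lay between 11.8 ± 0.899 (LM1-LM) and 14.4 ± 0.659 CPM (LM3-LM). LM2-LM was apart at 5.45, 5.21 and 5.98 CPM, below every other culture. Gadd45g separated the lines in a similar way, with 16.5 ± 0.645 to 19.9 ± 0.858 CPM in the MYAZ lines and 8.76 ± 1.30 (LM2-LM) to 13.7 ± 0.157 CPM (LM3-LM) in the Myc310 lineage. No culture of the Myc310 lineage reached a MYAZ culture for Gadd45b or Gadd45g. How many of all genes separate these lines in this way was not counted, and 50.9% to 62.8% passed the subtype tests given below. Gadd45gip1 varied least, from 51.1 ± 2.17 CPM in LM2 to 67.3 ± 2.62 in LM3, a ratio of 1.32 between the highest and the lowest line, and all 10 neighbours in its order overlapped. The same ratio was 5.48 for Gadd45a, 5.04 for Gadd45b and 2.27 for Gadd45g.

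**Figure D5:**
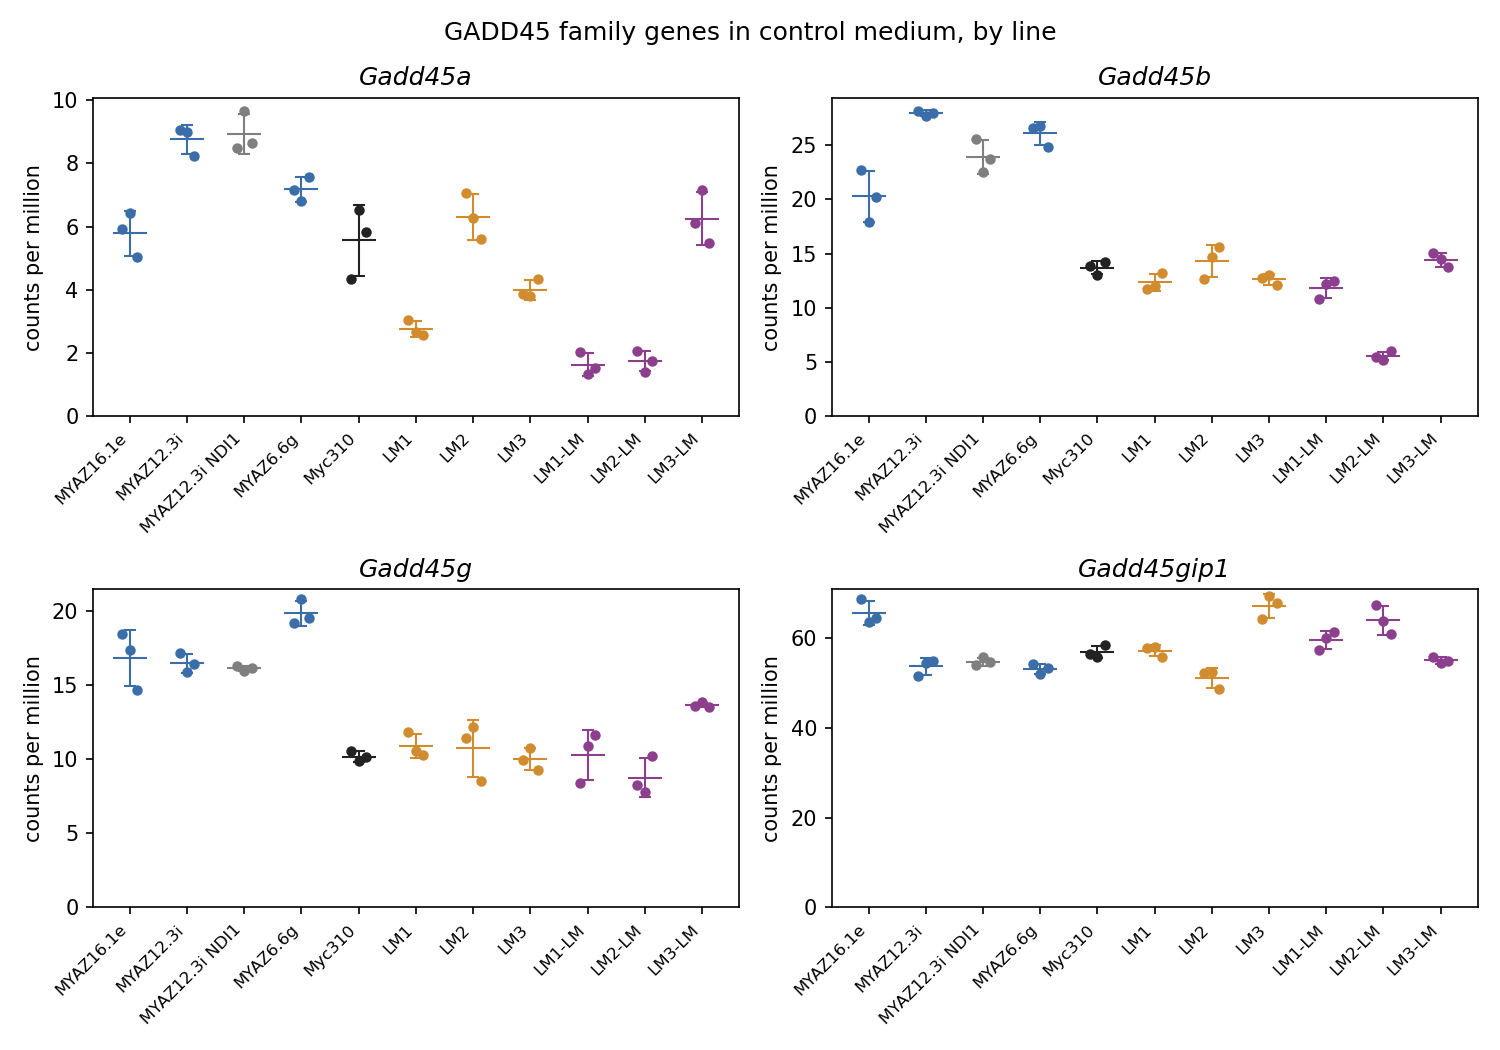
CPM in control medium of the 4 genes in the 11 lines; points are cultures, horizontal bars are means and vertical bars SDs of 3 cultures, coloured by subtype (MYAZ blue, the NDI1 line grey, Myc310 black, LM orange, LM-LM purple). Gadd45b and Gadd45g are higher in all MYAZ cultures than in the Myc310 lineage, a separation not counted over all genes. Gadd45a is lowest in LM1-LM and LM2-LM, and Gadd45gip1 stays between 48.6 and 69.5 CPM.

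These control levels were tested by subtype against the 3 MYAZ lines, without the NDI1 line, in 30 libraries. Gadd45g was lower in each, with log2 differences from MYAZ of -0.80 ± 0.16 (SE) for Myc310, -0.75 ± 0.11 for the LM lines and -0.72 ± 0.11 for the LM-LM lines (adjusted p = 8.48e-05, 4.52e-07 and 8.54e-07, edgeR). Gadd45b was also lower in each, with differences of -0.86 ± 0.25, -0.92 ± 0.17 and -1.24 ± 0.17 (adjusted p = 0.00452, 2.37e-05 and 2.29e-07, edgeR). The difference of Gadd45a in Myc310 was -0.39 ± 0.42 and did not pass (adjusted p = 0.470, edgeR). Gadd45gip1 differed by -0.02 to 0.03 and did not pass in any subtype (adjusted p = 0.691 to 0.883, edgeR). Gadd45b and Gadd45g thus passed in each comparison, both lower. Among all 13795 genes 50.9%, 60.8% and 62.8% passed in these comparisons, and 27.1%, 30.5% and 32.3% passed as lower.

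For Gadd45a in the lung-derived lines these differences are a description, since the control cultures of LM1 and LM1-LM are part of the deprivation changes by which the family was chosen. The fitted log2 difference from MYAZ was -0.73 ± 0.30 (SE) for the LM lines and -1.19 ± 0.30 for the LM-LM lines. With lines left out in turn, the LM-LM difference ranged from -2.12 (without LM3-LM) to -0.87. In the 6 lines without deprived cultures, whose libraries the choice did not use, the difference was -0.62 ± 0.33 for LM2 and LM3 (adjusted p = 0.107, edgeR) and -1.02 ± 0.33 for LM2-LM and LM3-LM (adjusted p = 0.0121), where 63.9% and 65.6% of 12980 genes passed. Of the last pair, LM2-LM was low in control medium at 1.74 CPM and LM3-LM stood at 6.25 CPM. Both edgeR tests count the cultures of a line as separate samples. On line means of all LM or LM-LM lines against MYAZ, LM1 and LM1-LM included, an exact two-sided permutation test gave p = 0.2 for each.

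The edgeR tests by subtype treat the cultures of a line as separate samples. With counts summed per line, Gadd45g stayed past the threshold in the LM and LM-LM lines (adjusted p = 0.0231 and 0.0259, edgeR) and Gadd45b in the LM-LM lines (adjusted p = 0.0235), whereas Gadd45b in the LM lines did not (0.0712). Both calls in Myc310, 1 line against 3, were lost as well (adjusted p = 0.288 for Gadd45b and 0.114 for Gadd45g, edgeR). On line means, 3 against 3, an exact two-sided permutation test gave p = 0.1 for Gadd45b and Gadd45g in both lung-derived subtypes, the smallest p this design allows. The control libraries of the 4 lines with deprived cultures also enter the deprivation values above. Summed leukocyte markers, nearly all from the lysosomal gene Cd68, were 4.13 to 6.31 CPM in the MYAZ lines and 8.76 to 18.8 CPM in the Myc310 lineage, with Ptprc and Lyz2 at or near 0. Summed fibroblast markers were 31.0 to 87.8 CPM in MYAZ12.3i and MYAZ6.6g, carried by Pdgfra and Pdgfrb, against 7.46 to 10.1 in MYAZ16.1e and 1.26 to 23.2 in the Myc310 lineage. Summed endothelial markers, most of it Kdr, were 3.52 to 6.56 CPM in the MYAZ lines and 0 to 0.911 in the Myc310 lineage, where Gadd45b and Gadd45g were also lower, with Pecam1 and Tek at or near 0 in all lines. Summed alveolar markers, of which Ager alone exceeded 0.0839 CPM in any library, were 0.963 to 1.97 CPM against 0.164 to 1.41. Summed mammary epithelial markers were 339 to 352 CPM in MYAZ12.3i, 715 to 749 in MYAZ6.6g and 1147 to 1175 in MYAZ16.1e, against 1016 to 2464 in the Myc310 lineage. The part of these markers in the differences was not tested.

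Each step of the lineage from Myc310 to LM1 and from LM1 to LM1-LM compares 1 line with its parent. For Gadd45a, the log2 difference in control medium was -1.02 ± 0.16 (SE) for LM1 minus Myc310 and -0.76 ± 0.19 for LM1-LM minus LM1. These are again descriptions without a test, because the choice of the family used the same control cultures. Gadd45b, Gadd45g and Gadd45gip1 did not pass at either step, with differences between -0.17 and 0.08 (adjusted p = 0.137 to 0.909, edgeR), when 32.5% and 10.6% of 13899 genes passed. In MYAZ12.3i expressing NDI1, Gadd45b was lower than in MYAZ12.3i (-0.23 ± 0.071, adjusted p = 0.0185, edgeR), in a comparison in which 18.5% of genes passed. That call was lost without the cultures numbered 2 or 3 (adjusted p = 0.199 and 0.113). The other 3 genes differed by -0.04 to 0.03 and did not pass (adjusted p = 0.749 to 0.927).

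The target lists were read in the same subtype comparison, with 27.1%, 30.5% and 32.3% of all genes lower and 23.8%, 30.3% and 30.5% higher in Myc310, the LM and the LM-LM lines. These counts again treat cultures as separate samples, and with counts summed per line the listed genes past the threshold went from 57, 59 and 65 to 19, 33 and 32. NF-kB targets were lower in the Myc310 lineage, with 9 of 10 lower in Myc310, 6 in the LM and 8 in the LM-LM lines, where 1 (Birc3) was higher, and median log2 differences of -1.41, -0.85 and -0.82 beside medians of all genes between -0.02 and 0.00. Relb differed by -2.28 to -2.08 and Nfkb2 by -1.06 to -0.81 in the 3 comparisons. TGF-beta targets were lower in 5, 5 and all 6 of 6 genes, with medians of -0.68, -0.81 and -0.77. The p53 targets went the other way, with 11, 12 and 12 of 15 higher and 1 lower (Sesn1), and medians of 1.07, 1.01 and 1.06, so that Gadd45a, a p53 target itself, had the opposite sign to most genes of that list in the LM and LM-LM lines. Of the regulators, 10, 11 and 12 of 14 were lower and Myc alone was higher, by 0.87 to 1.33. Amino acid response genes were lower in 6, 7 and 9 and higher in 3, 2 and 2 of 14 cases, with Atf3 lower (-2.42 to -2.19) and Ddit3 lower (-1.09 to -0.997), while Sesn2 was higher by 1.12 to 1.40.

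Among partners of the GADD45 proteins, Cdkn1a was higher by 1.76, 2.58 and 2.63 in Myc310, the LM and the LM-LM lines, and 4, 5 and 5 of 12 kinase and cell cycle partners were higher against 4, 5 and 6 lower. Mapk9, which encodes JNK2, was higher in each comparison (0.48, 0.52 and 0.59), and Map2k6 was lower in the LM-LM lines (-0.75). Map3k4, the kinase that GADD45 proteins bind directly, was lower (-0.24, -0.27 and -0.36), as was Pcna (-0.35, -0.36 and -0.46). Of 5 demethylation and repair partners tested, Ercc5 was higher in each comparison (0.62, 0.50 and 0.38), Ing1 and Tdg were lower in each, and Tet2 was lower in Myc310 and the LM lines. Of the 7 Gadd45gip1 partners, Mrpl24 and Stat3 were higher and Nfe2l2 and Nr4a1 lower in each comparison, and Mrpl23 was higher in the LM lines.

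Last, genes with a pattern like that of each member were sought by Pearson correlation of mean log2 CPM over the 15 groups, among the 8962 genes whose log2 CPM averaged 3 or more. The groups share lines and libraries, and for Gadd45a the 4 deprived groups stand far from the 11 control groups, so these coefficients are descriptions. Nearest to Gadd45a were Ccdc174 (r = 0.99), Herpud1 (0.98), a gene of protein degradation at the endoplasmic reticulum, Apbb2 (0.98), Mib2 (0.98) and Zfp994 (0.98). Nearest to Gadd45g were Stk17b (0.97), Dctn4 (0.97), Rhoc (0.97), Brf2 (0.96) and Zfand3 (0.96). Gadd45b was most like Cavin2 (0.95), a gene of caveolae, Igfbp7 (0.94), Trp53inp2 (0.94), Apol9b (0.94) and Smpd1 (0.93), and Gadd45gip1 most like Mau2 (0.94), Timm44 (0.93), which serves mitochondrial protein import, Kars (0.91), Vps36 (0.90) and Dhx16 (0.87). Spearman's coefficients for these 20 genes lay between 0.768 and 0.957. Within the 11 control groups, several of which are related lines, Gadd45b and Gadd45g had r = 0.89 (Spearman 0.85), Gadd45a and Gadd45b r = 0.84 (0.93) and Gadd45a and Gadd45g r = 0.74 (0.70), while Gadd45gip1 had negative coefficients with all 3, from -0.36 to -0.53.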

How the data were processed

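The authors aligned poly(A) reads with STAR and quantified genes with RSEM (nf-core RNAseq), on GRCm38 per the submitters' processing notes, and deposited unnormalised whole-number counts per gene for 45 libraries of 19517859 to 29019988 counts. From these counts, CPM were computed with TMM-scaled library sizes and a prior of 2 counts for log2 CPM. Differences were fitted with edgeR 4.0.16 (quasi-likelihood test, TMM, filterByExpr, R 4.3.3), with Benjamini-Hochberg adjustment over all genes tested and a threshold of 0.05. Subtype only was modelled in 30 control libraries, line in 33 control libraries, and line by medium in 24 libraries. The fits were also run on simulated counts, and the outcome of that run is not given here. Exact permutation tests used line means. The alternatives were DESeq2 1.42.0, other scalings, no filter, counts summed per line, lines or replicates left out, and the replicate number as a block. Gene positions and exon lengths came from GENCODE M21 and promoters from RefSeq.

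The members, lists and motifs were chosen with earlier results of these data or the promoter sequences known. All members were named; from each list, up to 3 genes with the largest mean change among those past the threshold in the same direction in all 4 lines, plus genes behind counts of 5 or fewer in partner lists, and the 5 genes most correlated with each member. A gene that this rule selects is not reported here. Other listed genes named (among them Mapk9, Nfkbia, Nfkb2, Trp53, Myc, Sesn1, Sesn2 and Stat3) were chosen after their values were seen. 4 marker genes were not analysed here.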

Additional observations from a re-analysis of the deposited data

How the results depend on the processing

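No difference past the threshold changed sign under an alternative, and 717 of 756 values from alternatives stayed on their side of the threshold or, without a test, moved by less than the spread between cultures. A change of sign occurred in 16 values, all of differences that did not pass or were not tested and were no larger than 0.15 (log2) as reported: 10 of Gadd45gip1, 4 of Gadd45b and 1 each of Gadd45a and Gadd45g. With counts summed per line, calls against MYAZ were lost for Gadd45b (-0.84, adjusted p = 0.288) and Gadd45g (-0.77, 0.114) in Myc310 and Gadd45b (-0.90, 0.0712) in the LM lines, by edgeR. The differences of Gadd45a, a description here, were then -0.70 in the LM and -1.15 in the LM-LM lines. Listed genes past the threshold went from 57, 59 and 65 to 19, 33 and 32 in Myc310, LM and LM-LM, and all genes from 7022, 8385 and 8661 to 1429, 3788 and 4226, with fewer samples by construction. The LM difference of Gadd45a was -0.71 without the count filter and -0.62 in the 6 lines without deprived cultures, and ranged from -1.10 to -0.48 when lines were left out in turn and from -0.76 to -0.68 without replicate 1, 2 or 3. The cause was not tested. Upper-quartile scaling moved the deprivation change of Gadd45gip1 to -0.22, -0.26 and -0.33 in Myc310, LM1 and LM1-LM.

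Leaving out replicates in turn, Gadd45a in LM1-LM minus LM1 ranged from -0.88 to -0.65, and Gadd45b in MYAZ12.3i NDI1 minus MYAZ12.3i from -0.27 to -0.19. The deprivation change ranged from 6.63 to 6.84 for Gadd45a in LM1, and from 0.54 to 0.80 in MYAZ16.1e and 1.26 to 1.51 in LM1 for Gadd45g. Differences of response from MYAZ16.1e ranged, in Myc310, from 0.71 to 1.13 (Gadd45a), 0.26 to 0.47 (Gadd45g) and -0.26 to -0.040 (Gadd45gip1), and in LM1-LM from 2.99 to 3.37 (Gadd45a), -0.0058 to 0.26 (Gadd45b), 0.92 to 1.30 (Gadd45g) and -0.32 to -0.13 (Gadd45gip1).

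Samples of the same number did not deviate together (0 of 12 correlations over 0.1, from -0.0533 to 0.0452, and 3 of 12 highest for their own number). With the replicate number as a block no call of a member changed, and the LM difference of Gadd45a was -0.73. Control Gadd45a rested on 32 to 254 counts per library, which limits its folds.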
